A study of Mus musculus with 4 samples.

Results

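Interferon-responsive microglia were taken here as the cells that the depositors' coarser clustering placed in cluster 5, and AppSAA mice were compared with WT mice within that cluster. The 8 mice compared held 4213 such cells among their 32400 cells, and all 20 mice of the series held 4989 among 74758. Both groups carried homozygous TfRmu/hu, a mouse transferrin receptor with a human apical domain. The AppSAA mice also carried homozygous AppSAA, a knock-in of familial Alzheimer's disease mutations into the mouse App gene, which drives amyloid plaques from the gene's own promoter. All 8 mice were recorded as male. Each had received ATV:4D9 intravenously at 10 mg per kg and was killed after 24 h. ATV:4D9 is a Trem2-activating antibody with a transferrin receptor binding site for passage across the blood-brain barrier. The methods list AppSAA mice at 8 months and WT mice of the same background at 2 to 8 months, so the age of these WT mice is not fixed by the sources used here. If they were younger, age and genotype cannot be told apart in any comparison below. Sorted cells were tagged by mouse and pooled, with 1 mouse from each of the 5 groups in every one of the 4 pools. The sources differ on the tissue, given as cortex or as cortex with hippocampus, and on the sort, given as live CD11b+ or as CD45+ CD11b+ cells. The remaining 12 mice, of the groups AppSAA 4D9, AppSAA ATV-DNP02 and WT ATV-DNP02 (1 of the last recorded as female), appear only where named.

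Microglia enter an interferon-responsive state when type I interferon binds the Ifnar1 and Ifnar2 receptor chains, which signal through Jak kinases to transcription factors. Those factors bind interferon-stimulated response elements in promoters and raise a set of antiviral effectors, guanylate-binding proteins, chemokines and antigen presentation genes. In brains with amyloid plaques, a separate state, disease-associated microglia (DAM), is marked by Apoe, Cst7, Spp1 and related genes and depends on Trem2. The comparison asks how cells of the interferon-responsive state differed between the amyloid genotype and WT after the same antibody.

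The label of the cluster was first checked against markers. Among the 6 deposited clusters, all 14 interferon marker genes had their highest level in cluster 5, from 2.03 times the next cluster for Bst2 to 15.4 times for Ifit1. The 6 microglial markers were all present, the lowest being Siglech at 512 UMIs per 1000000 (CPM), and all were lower than in the homeostatic cluster 0. Of other cells, the 6 lymphocyte markers summed to 0 to 0.712 CPM per mouse, with Cd3e and Ms4a1 at 0 in all 8 mice, and the 5 markers of other macrophages summed to 9.54 to 27.9 CPM. A longer list of 12 lymphocyte genes took 0.0208 to 0.0257% of UMIs per mouse. The 6 markers alone thus do not show that lymphocyte genes were absent. Of these 12 genes, 10 averaged under 10 CPM and 3 had no UMI in any of the 8 mice. That share therefore rested mostly on few genes and is no measure of lymphocyte number. The 6 markers of monocytes and dendritic cells summed to 27.2 to 40.0 CPM, with Plac8 the highest at a mean of 30.02. The cluster sum of each mouse held 11243593 to 18753983 UMIs in AppSAA mice and 2037195 to 4422511 in WT mice, so WT values carried more counting error.

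Interferon-responsive cells took a larger share of the microglia in each AppSAA mouse than in any WT mouse. They made up 21.4, 20.8, 28.6 and 18.9% of the cells of the AppSAA mice in pools 1 to 4 (970, 796, 690 and 1071 cells), and 5.61, 3.57, 3.33 and 4.33% of those of the WT mice in the same pools (253, 151, 99 and 183 cells). The means were 22.4% ± 4.26 and 4.21% ± 1.02 (SD, n = 4 each), a 5.32-fold difference, with no overlap. The two-sided exact permutation test gave p = 0.029, the smallest that 4 against 4 mice allow, and 0.057 after Benjamini-Hochberg adjustment over the 2 per-mouse values tested, which misses 0.05. The median cell of the cluster held 15129, 13550, 14689 and 15568 UMIs in the AppSAA mice and 16169, 14122, 18897 and 19915 in the WT mice. The AppSAA mouse had the lower median in every pool, but the groups overlapped (exact permutation p = 0.14, adjusted p = 0.14). The median percent of mitochondrial UMIs overlapped too, at 1.13 to 2.03 in AppSAA and 0.970 to 1.79 in WT mice. Within the cluster, the 58 interferon effector genes listed for this work took 2.19, 2.10, 1.96 and 1.89% of UMIs in AppSAA mice and 2.32, 2.04, 2.08 and 2.11% in WT mice. The share of RNA spent on the interferon programme thus overlapped between genotypes inside the cluster, while the plot of values by mouse shows that in the other microglia it did not: 0.650 to 0.787% in AppSAA mice and 0.389 to 0.508% in WT mice. These shares were not tested.

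**Figure D1:**
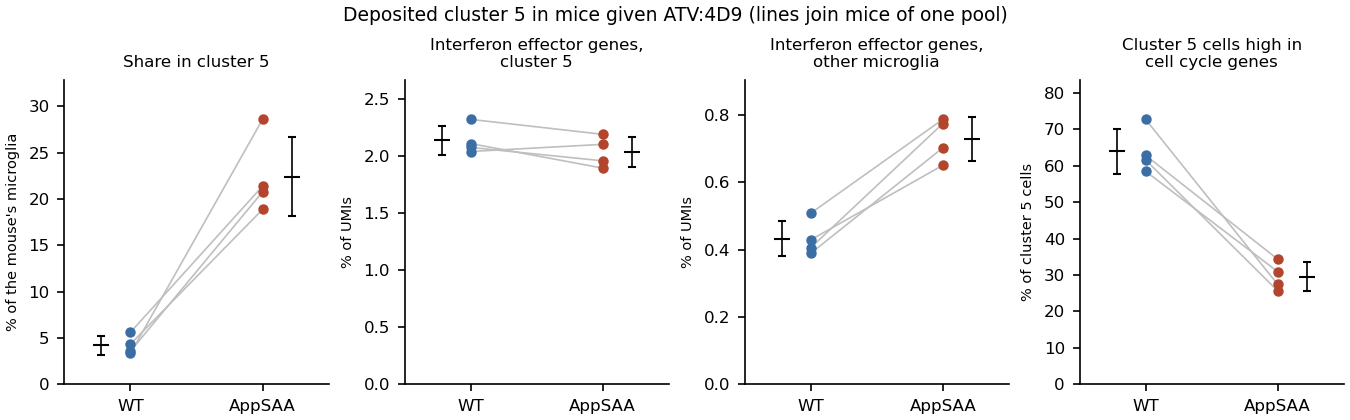
Values of each mouse given ATV:4D9: the share of its microglia in cluster 5, the percent of UMIs from 58 interferon effector genes in cluster 5 and in the other microglia, and the percent of cluster 5 cells with at least 10 cell cycle UMIs per 10000 UMIs. Points are mice (4 per genotype), grey lines join mice of 1 pool, and black marks give the mean and SD. The share in cluster 5 is 18.9 to 28.6% in AppSAA and 3.33 to 5.61% in WT mice, while the interferon share within the cluster overlaps.

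UMIs were summed per mouse over the cells of the cluster and compared with pool as a block. Of 11543 genes tested, 1874 (16.2%) were called at an adjusted p under 0.05 by edgeR's quasi-likelihood test, 1013 (8.78%) higher and 861 (7.46%) lower in AppSAA. The 2 groups of 4 mice did not overlap for 14.7% of all tested genes. Without pool 3, whose WT mouse had the fewest cells of the cluster, the count was 1195, and without the pool block it was 680. In all that follows, levels are CPM of a mouse's cluster sum in the order of pools 1 to 4, and a fold change is the fitted AppSAA level over WT with its log2 value ± SE. The fits also scaled each sum by a normalization factor that the printed CPM do not carry. A fold change can therefore differ from the ratio of the printed levels. Over the 11543 genes the log2 fold change had a median of -0.0017. Because cells were placed in the cluster by their expression, interferon genes included, levels of those genes compare cells already selected for them. A sum per mouse also cannot tell a change in every cell from a change in the mix of cells within the cluster.

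The interferon effectors, the proteins that block viral replication and modify the infected cell, split in direction. Of 58 tested, 10 rose, 17 fell and 31 were not called, with a median log2 fold change of -0.13. Called or not, 5 of the 58 lay higher in all 4 AppSAA mice than in any WT mouse and 17 lay lower. Ifi27l2a, a small interferon-induced mitochondrial protein, had the largest rise.

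Ifi27l2a (mm10, chr12:103442167-103443680) stood at 1055, 1186, 1120.3 and 965 CPM in AppSAA mice and 362, 336, 221 and 299 in WT mice. Every AppSAA mouse lay far above every WT mouse, a 3.81-fold difference (1.93 ± 0.11, adjusted p = 2.4e-08). Ifitm3, which blocks entry of enveloped viruses, measured 1937, 1819, 1617 and 1468 CPM in AppSAA and 1674, 1143, 943 and 1102 in WT. It was higher in the AppSAA mouse of all 4 pools although the groups overlapped (1.53-fold, 0.61 ± 0.09, adjusted p = 2e-05). Oas3, an oligoadenylate synthetase that activates RNase L on double-stranded RNA, read 29.9, 31.2, 31.0 and 35.9 against 22.8, 15.6, 18.7 and 28.6 CPM, with no overlap (1.55-fold, adjusted p = 0.00023). For its relative Oas1g the values were 17.5, 13.1, 19.8 and 11.7 and 14.5, 5.64, 8.34 and 4.20 CPM, and the groups overlapped (1.96-fold, adjusted p = 0.00024). Neither was called without the cells high in cell cycle genes described below, with Oas3 at log2 0.25 and Oas1g at 0.58 (adjusted p = 0.49 and 0.12). Lgals3bp, a secreted galectin-3 binding glycoprotein, reached 669, 671, 849.8 and 825 against 539.5, 493, 527 and 616 CPM (1.47-fold, adjusted p = 7.1e-06). Ly6e, a membrane protein that restricts coronaviruses and 1 of the 3 most abundant genes of the list, was chosen after its values were seen and also rose (1.29-fold, adjusted p = 0.0017). The Oas genes and Ifi27l2a have near copies in the genome, so reads shared between copies may have been lost or misplaced.

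The effectors that fell included Ifit1, Ifit2 and Ifit3, Isg15, Rsad2, Mx1, Usp18 and Cmpk2, antiviral genes that are standard readouts of type I interferon. Cmpk2, a mitochondrial nucleotide kinase that neighbours Rsad2 on chromosome 12 (chr12:26469204-26479837), stood at 68.3, 61.2, 59.0 and 60.5 CPM in AppSAA mice and 103, 87.6, 125 and 93.8 in WT mice. All 4 AppSAA mice lay below all 4 WT mice, at 0.656 times the WT level (-0.61 ± 0.08, adjusted p = 5.3e-06). Mx1, a dynamin-like GTPase that traps viral nucleocapsids, was at 147, 159, 137 and 152 against 167, 222, 222 and 226 CPM, again with no overlap (0.766 times, adjusted p = 0.00081). Rnf213, a giant ubiquitin ligase, was at 213, 220.1, 304 and 288 against 298, 309, 393 and 399 CPM. Its groups overlapped between pools, but the AppSAA mouse was lower in each pool (adjusted p = 0.00057). Isg15, the ubiquitin-like protein named for this response, measured 2112, 1593, 1384 and 1273 CPM in AppSAA and 2435, 1959, 2010.1 and 1984 in WT, at 0.799 times the WT level (-0.32 ± 0.09, adjusted p = 0.0099). Markers of the cluster were among those that fell. Rsad2, which makes a chain-terminating nucleotide, was at 470.4, 394, 352 and 423 against 679.7, 451, 673 and 669 CPM (log2 -0.49, adjusted p = 0.0021). Ifit1, Ifit2 and Ifit3, which bind foreign RNA, changed by log2 -0.32, -0.41 and -0.40 (adjusted p = 0.02, 0.017 and 0.0051). The deconjugating enzyme Usp18, a brake on Ifnar2 signalling, changed by log2 -0.39 (adjusted p = 0.001). Irf7, the factor that amplifies interferon production, was at 491, 399.7, 313 and 297 against 554, 353, 341 and 384 CPM, and its log2 difference of -0.03 ± 0.09 was not called (adjusted p = 0.86). Without pool 3, and likewise without pool 4, 9 in place of 17 effectors were called lower. Ifit1 (adjusted p = 0.19 and 0.19), Ifit2 (0.077 and 0.18), Ifit3 (0.092 and 0.099) and Isg15 (0.099 and 0.056) missed the threshold without pools 3 and 4, Rsad2 without pool 4 (adjusted p = 0.096) and Ly6e without pool 3 (adjusted p = 0.074), all in the same direction.

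**Figure D2:**
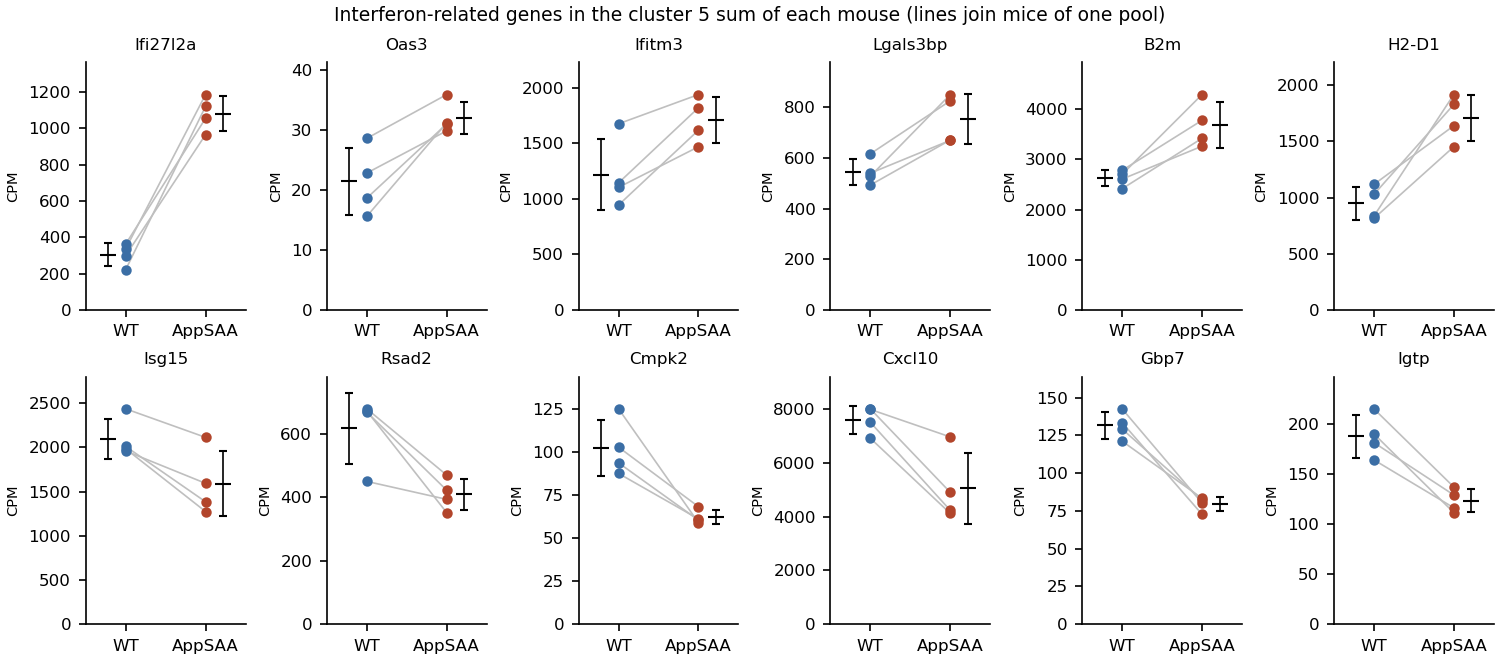
CPM of 12 interferon-related genes in the cluster 5 sum of each mouse, on linear axes that start at 0. Points are mice, grey lines join mice of 1 pool, and black marks give the mean and SD of 4 mice. The upper row holds genes called higher in AppSAA, such as Ifi27l2a with 965 to 1186 against 221 to 362 CPM, and the lower row genes called lower, such as Cmpk2 with 59.0 to 68.3 against 87.6 to 125 CPM.

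Receptors and transducers of interferon had a median log2 fold change of 0.03. Of 21 tested, 5 rose and 2 fell, beside 16.2% of all genes tested. The 5 were the receptor chains Ifnar1, Ifnar2, Ifngr1, Ifngr2 and Il10rb, and without pool 3 none of them was called. Without pool 4, 3 were called, Ifnar1 being among those lost (adjusted p = 0.052). Ifnar1 and Ifnar2, which together bind type I interferon, were at 41.2 ± 4.60 against 34.5 ± 6.36 CPM and 269 ± 26.7 against 228 ± 28.9 CPM (mean ± SD, n = 4), with log2 differences of 0.36 and 0.33 (adjusted p = 0.0058 and 0.002). Ifngr1 and Ifngr2, the receptor chains of interferon gamma, differed by log2 0.31 and 0.33 (adjusted p = 0.0034 and 0.0024). Socs1, a feedback inhibitor of Jak kinases, was at 28.4, 31.7, 16.9 and 18.3 against 39.6, 46.4, 25.5 and 35.2 CPM and lower in AppSAA in every pool (log2 -0.55, adjusted p = 0.00034).

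Nucleic acid sensors and immunity GTPases fell or were not called. Of 16 sensors tested, none rose and 4 fell, beside 16.2% of all genes tested (median log2 fold change -0.15): Cgas, Tlr3, Ifih1 and Aim2. Without pool 3, and likewise without pool 4, 2 sensors were called lower, beside 1195 of 11392 and 1358 of 11385 of all genes called. Cgas, which senses cytosolic DNA, was at 86.2, 81.8, 72.8 and 81.1 against 120.3, 147, 118 and 112 CPM (0.698 times, adjusted p = 7.7e-06), and Tlr3, the endosomal receptor for double-stranded RNA, at 110.3, 117, 124 and 130.4 against 149, 178, 195 and 198 (0.718 times, adjusted p = 1.4e-05). Both had no overlap between the groups. Ifih1, the cytosolic receptor for long double-stranded RNA, and Aim2, a DNA-sensing inflammasome protein, differed by log2 -0.26 and -0.22 (adjusted p = 0.022 and 0.034). Ifih1 missed the threshold without pools 3 and 4 (adjusted p = 0.17 and 0.14), and Aim2 without pools 2, 3 and 4 (adjusted p = 0.14, 0.063 and 0.12). The guanylate-binding proteins and immunity-related GTPases, which attack the vacuoles of intracellular pathogens and are classical targets of interferon gamma, gave the most uniform fall of the interferon lists. Of 15 tested, 9 fell and none rose, with a median of -0.36. Gbp7 (chr3:142530342-142550149) was at 83.3, 82.2, 72.8 and 80.2 CPM in AppSAA mice and 121, 129, 134 and 143 in WT mice, at 0.648 times the WT level with no overlap (-0.63 ± 0.08, adjusted p = 7e-07). Igtp, also called Irgm3, was at 137, 129, 112 and 116 against 215, 182, 190.5 and 164 CPM (-0.51 ± 0.07, adjusted p = 7.7e-06). Gbp3 and Irgm2 differed by log2 -0.36 and -0.42 (adjusted p = 0.0027 and 0.001). Gbp4, also among the 9, missed the threshold without pool 1 (adjusted p = 0.061), as did Ifi47, a GTPase on the effector list (adjusted p = 0.072). Igtp and Irgm2 overlap on chromosome 11 in the annotation, and the Gbp genes resemble each other, so their separate counts are uncertain.

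Promoters of 2 interferon genes that rose and 2 that fell are printed as examples, picked because they hold the same element. They are RefSeq sequences (GRCm38.p6, which is mm10) from 250 bases before to 50 after the gene start, 5′ to 3′. Capitals mark matches on either strand to GAAANNGAAA, a core of the interferon-stimulated response element, whose matches can overlap each other.
Ifitm3 (chr7:141010695-141010994, minus strand): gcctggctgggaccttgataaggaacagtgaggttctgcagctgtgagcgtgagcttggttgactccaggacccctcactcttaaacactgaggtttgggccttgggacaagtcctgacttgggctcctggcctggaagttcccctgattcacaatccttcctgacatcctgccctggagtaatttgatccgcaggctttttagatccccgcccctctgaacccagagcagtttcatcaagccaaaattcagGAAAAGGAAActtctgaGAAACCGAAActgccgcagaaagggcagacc
B2m (chr2:122147437-122147736, plus strand): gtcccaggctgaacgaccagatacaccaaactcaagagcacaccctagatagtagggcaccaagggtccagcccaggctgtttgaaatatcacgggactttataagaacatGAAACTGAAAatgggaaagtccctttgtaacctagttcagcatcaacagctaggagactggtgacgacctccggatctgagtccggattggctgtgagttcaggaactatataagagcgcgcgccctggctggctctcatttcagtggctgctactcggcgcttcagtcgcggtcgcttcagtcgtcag
Gbp7 (chr3:142530086-142530385, plus strand): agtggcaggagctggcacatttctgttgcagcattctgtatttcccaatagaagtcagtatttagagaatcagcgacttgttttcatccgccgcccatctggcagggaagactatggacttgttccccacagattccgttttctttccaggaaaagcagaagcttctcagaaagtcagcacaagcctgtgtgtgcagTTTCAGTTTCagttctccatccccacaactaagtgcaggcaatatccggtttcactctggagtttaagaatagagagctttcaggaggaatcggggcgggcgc
Cxcl10 (chr5:92348840-92349139, minus strand): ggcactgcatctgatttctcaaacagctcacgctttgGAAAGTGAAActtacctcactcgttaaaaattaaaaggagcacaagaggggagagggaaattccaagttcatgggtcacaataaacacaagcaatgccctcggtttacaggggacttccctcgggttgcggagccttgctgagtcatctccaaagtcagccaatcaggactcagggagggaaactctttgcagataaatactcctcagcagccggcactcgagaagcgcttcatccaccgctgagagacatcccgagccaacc

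This element occurred in 3.44% of all 32851 promoters in the table. It occurred in 25 of 58 promoters of the interferon effectors, where 46 of 58 genes had an entry, and in 9 of 10 promoters of the immunity GTPases, where 9 of 15 genes had an entry. Among effectors called higher it was in 7 of 12 promoters, and among those called lower in 6 of 15. On the lists that B2m and Cxcl10 come from, it was in 4 of 18 promoters of MHC class I genes and 2 of 10 of chemokines. A match is a description of the letters and not a measured binding site.

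Chemokines, the secreted attractants of immune cells, took 2.41 to 3.63% of UMIs in AppSAA and 3.45 to 4.26% in WT mice. Of 15 tested, 3 rose (Ccl6, Cxcl14 and Cxcl16) and 4 fell (Ccl2, Ccl4, Ccl12 and Cxcl10), with a median log2 fold change of 0.05. Without pool 4, 2 were called lower. Cxcl10, which draws T cells through Cxcr3 (chr5:92346638-92348889), was at 6958, 4232, 4117 and 4899 CPM in AppSAA mice and 7981, 7503, 6909.5 and 8003 in WT mice. The AppSAA mouse of pool 1 reached the WT range and the other 3 did not (0.696 times, -0.52 ± 0.10, adjusted p = 0.00027). Ccl12, a ligand of Ccr2, was at 13025, 9776, 8266 and 8074 against 16459, 12842, 11923 and 15694 CPM, lower in every pool with the groups overlapping (0.728 times, adjusted p = 0.0028). Ccl6 rose instead, from 111, 132, 114 and 132 CPM in WT to 153, 179, 232 and 176 in AppSAA (1.59-fold, adjusted p = 1.3e-05). Cxcl16, a membrane-bound ligand of Cxcr6, was called higher (log2 0.32, adjusted p = 0.0068), but its value was -0.07 without the cells high in cell cycle genes described below, and it missed the threshold without pools 2 and 3 (adjusted p = 0.061 and 0.11).

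Many antigen presentation genes rose in AppSAA. MHC class I molecules show cytosolic peptides to CD8 T cells, and of 20 genes of that pathway tested 11 rose and 2 fell, with a median log2 fold change of 0.28. H2-D1, a classical class I heavy chain, was at 1638, 1828, 1916 and 1452 CPM in AppSAA and 1116, 1027, 834 and 814 in WT mice (1.93-fold, 0.95 ± 0.09, adjusted p = 1.2e-08). The second classical heavy chain, H2-K1, was at 1405, 1391, 1742 and 1406 against 1063, 879, 913 and 981 CPM (1.65-fold, adjusted p = 7e-07). Both were without overlap, as was B2m, the shared light chain (chr2:122147686-122153083), at 3261, 3418, 4290.0 and 3777 against 2605, 2413, 2699 and 2779 CPM (1.50-fold, adjusted p = 1.3e-05). H2-M3, which presents formylated peptides, rose 1.52-fold (adjusted p = 6.6e-05). H2-Q7, chosen after its values were seen, was at 96.0, 87.2, 193 and 125 against 40.2, 28.2, 39.8 and 54.9 CPM (adjusted p = 0.014). H2-Q7 missed the threshold without pool 2 (adjusted p = 0.094). The H2 class I genes are near copies, and their separate counts are uncertain.

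MHC class II molecules show endocytosed peptides to CD4 T cells. Of 7 of these genes tested, 5 rose and none fell, with a median log2 fold change of 1.20. Cd74, the invariant chain, was at 714, 828, 1125 and 756 CPM in AppSAA and 302, 312, 214 and 259 in WT mice (3.30-fold, 1.72 ± 0.24, adjusted p = 0.02). H2-Ab1, a class II beta chain, was at 82.1, 111, 196 and 130.2 against 47.9, 42.5, 53.5 and 55.4 CPM (2.60-fold, adjusted p = 0.0053). H2-Oa, a modulator of peptide loading, had 49.2, 69.3, 66.9 and 64.3 against 30.1, 29.5, 27.5 and 25.7 CPM (2.30-fold, adjusted p = 7.4e-10), and H2-DMa, which catalyses loading, rose by log2 0.35 (adjusted p = 0.001). Cd74, H2-Ab1 and H2-Oa showed no overlap. H2-Aa, the class II alpha chain and named after its values were seen, was at 61.0, 73.8, 171 and 92.8 against 32.3, 27.3, 33.9 and 31.5 CPM (3.08-fold, adjusted p = 0.029). The AppSAA mouse of pool 3 had the highest Cd74, H2-Ab1 and H2-Aa of all 8. Without pool 4, 2 of the 7 genes were called, and without pool 2, 3 were. Those lost included Cd74 (adjusted p = 0.13 without pool 4 and 0.11 without pool 2), H2-Aa (adjusted p = 0.14 and 0.15) and, without pool 4, H2-Ab1 (adjusted p = 0.058).

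Most plaque-response genes were higher in AppSAA within the interferon-responsive cells. Of 36 DAM genes tested, 25 rose and none fell, and 34 had a positive log2 fold change (median 0.63). B2m, Ccl6, Trem2 and Tyrobp, described elsewhere, are among the 25. The sum of these genes took 5.32 to 5.86% of UMIs in AppSAA and 3.89 to 4.17% in WT mice. Apoe, the lipid carrier protein (chr7:19696109-19699188), was at 4109, 6173, 7104 and 5218 CPM in AppSAA mice and 819, 842, 1234 and 1535 in WT mice. The lowest AppSAA mouse was over 2 times the highest WT mouse (5.53-fold, 2.47 ± 0.24, adjusted p = 0.0045). Cst7, a cathepsin inhibitor and listed DAM marker, was at 924, 1198, 1257 and 1039.8 against 373, 294, 339 and 439 CPM (3.25-fold, adjusted p = 0.0025). Among low genes with large differences, Igf1, a growth factor, was at 16.6, 26.2, 42.4 and 26.2 against 0.452, 2.60, 7.85 and 3.68 CPM (8.96-fold, 3.16 ± 0.21, adjusted p = 1.2e-10). Spp1, the secreted phosphoprotein osteopontin, was at 56.8, 101, 195 and 122 against 13.3, 13.9, 36.8 and 22.3 CPM (5.72-fold, 2.52 ± 0.10, adjusted p = 9e-17). Spp1 was unevenly spread over cells. The 10% of cells with the most Spp1 held 83.2 to 89.3% of its UMIs in AppSAA mice and 54.2 to 78.1% in WT mice. With each cell thinned to 5000 UMIs, 12.6 to 19.8% of AppSAA and 4.83 to 10.5% of WT cells held an Spp1 UMI (before thinning, 26.3 to 43.0% and 15.2 to 37.4%). Thinning left out 12 to 37 shallower cells per AppSAA mouse and 1 to 6 per WT mouse. No cell type known to lack Spp1 was at hand to show the share that free RNA alone gives.

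Some cell surface and lysosomal members of the DAM list were among the 25 that rose. Others were not called, such as Cd68, Cd9, Ctsb and Ctsz, at log2 -0.03, 0.05, 0.10 and 0.08 (adjusted p = 0.83, 0.72, 0.48 and 0.60). Axl, a receptor for apoptotic cells that is also interferon-inducible, was at 191, 188, 235 and 204 against 126, 81.1, 108 and 118 CPM (2.00-fold, adjusted p = 3.3e-07). Clec7a, a beta-glucan receptor, was at 271, 221, 297 and 247 against 142, 101, 198 and 139 CPM (1.94-fold, adjusted p = 1.9e-09), and the integrin Itgax at 68.3, 82.9, 116 and 101 against 38.9, 39.5, 56.5 and 59.4 (2.00-fold, adjusted p = 1.2e-09). For all of Axl, Clec7a and Itgax the genotypes did not overlap. Ank, a phosphate and ATP exporter, Ctsl, a lysosomal protease, and the surface glycoprotein Cd52 rose 2.25-fold, 1.79-fold and 1.74-fold (adjusted p = 5.5e-11, 1.2e-08 and 7.3e-07). Gpnmb, a lysosomal glycoprotein listed as a DAM marker, had 2.11, 12.2, 18.6 and 13.5 against 0.678, 0.867, 6.87 and 5.25 CPM, with overlapping groups (3.48-fold, adjusted p = 4.2e-06). In the finer deposited clustering, 21 to 29 of the cluster 5 cells of each AppSAA mouse and 0 or 1 of each WT mouse fell in its cluster 3, and 92.7 to 93.6% and 92.9 to 99.0% fell in its own cluster 5. Among cells in cluster 5 of both clusterings, 25 of the 36 DAM genes were again called higher and the median was 0.62.

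**Figure D3:**
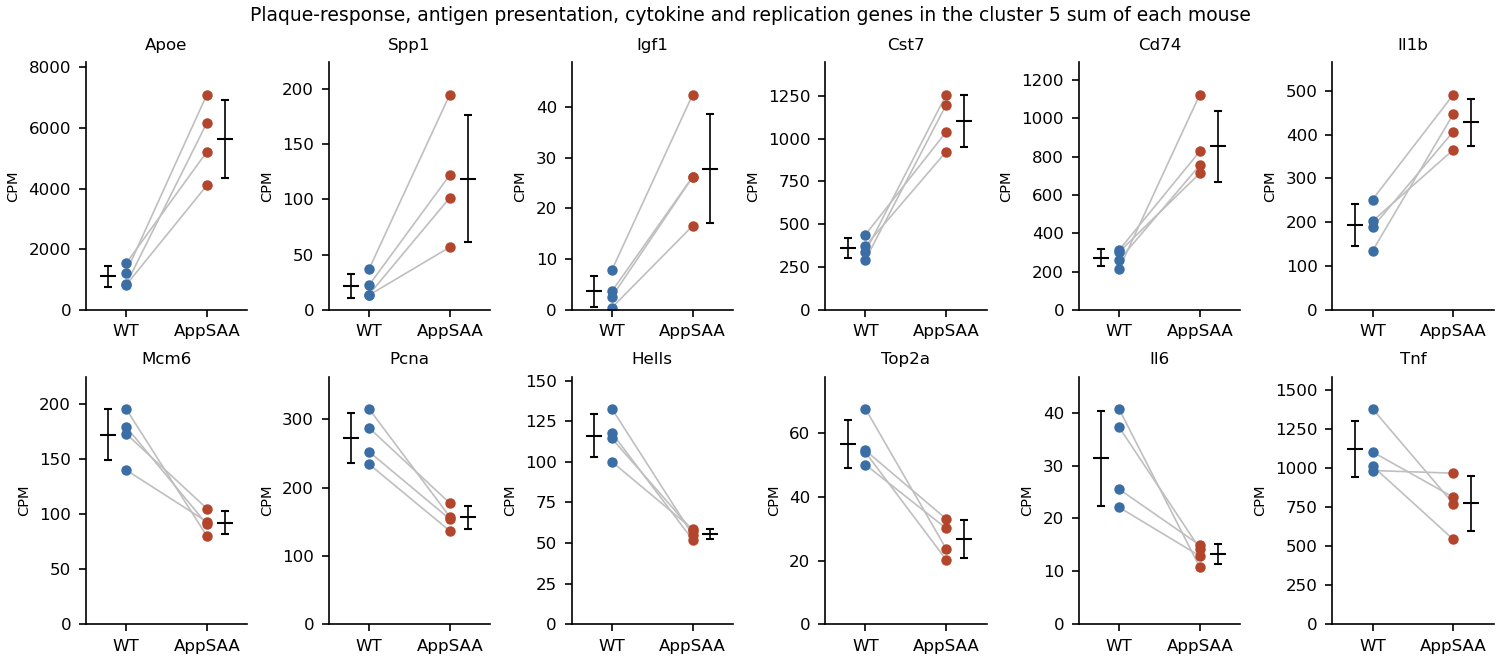
CPM of 12 further genes in the cluster 5 sum of each mouse, on linear axes that start at 0, with mice of 1 pool joined and black marks for the mean and SD of 4 mice. Apoe, Spp1, Igf1, Cst7, Cd74 and Il1b are higher in AppSAA and Mcm6, Pcna, Hells, Top2a, Il6 and Tnf lower, without overlap between the genotypes in any of the 12.

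Of 20 homeostatic microglial genes tested, 1 rose and 1 fell (median -0.02), beside 16.2% of all genes tested. Without pool 4, 4 were called lower and 0 higher. P2ry13, a nucleotide receptor, was at 164, 183, 198 and 209 CPM in AppSAA and 226, 297, 257 and 265 in WT mice (adjusted p = 0.0004), while its neighbour P2ry12 was at 525 ± 115 and 631 ± 103 CPM (mean ± SD) and was not called (adjusted p = 0.12). Siglech, a sialic acid-binding lectin, was called higher (log2 0.23, adjusted p = 0.042), and Csf1r, the survival receptor of microglia, was not called (log2 0.18, adjusted p = 0.12). Siglech missed the threshold without pools 2, 3 and 4 (adjusted p = 0.13, 0.23 and 0.21), and P2ry12 was called lower without pool 4 (log2 -0.28, adjusted p = 0.017).

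The target of the antibody and its adaptor were both higher. Trem2, the lipid-sensing receptor (chr17:48346401-48354147), was at 2121, 2785, 2464 and 2467 CPM in AppSAA and 2123, 2188, 1934 and 2021 in WT mice, level with WT in pool 1 and higher in AppSAA in the other 3 (1.27-fold, 0.34 ± 0.08, adjusted p = 0.0048). Without pool 3 it missed the threshold (adjusted p = 0.11). Tyrobp, the signalling adaptor of Trem2, was at 3951, 4624, 4072 and 3990.0 against 2987, 2886, 2650.2 and 2846 CPM, with no overlap (1.56-fold, adjusted p = 2.9e-06). In the list of Trem2 signalling and the antibody's targets, 3 of 17 tested genes rose, Apoe being the third, and 1 fell, beside 16.2% of all genes tested. Pik3ap1, an adaptor of PI3 kinase, was the gene that fell (log2 -0.29, adjusted p = 0.004). App itself was at 132, 137, 144 and 137 CPM in AppSAA and 133, 151, 145 and 111 in WT mice, and the knock-in gene was not called (log2 0.13, adjusted p = 0.24). Tfrc, which carries the human apical domain in both groups, was not called either (log2 -0.27, adjusted p = 0.14).

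Cell cycle genes gave the lowest median of the 22 lists. Of 32 tested, 22 fell and 1 (Ube2c) rose, with a median log2 fold change of -0.69. The fall covered the replication licensing helicase Mcm2 to Mcm7, the sliding clamp Pcna and the G1/S cyclins, which are targets of E2F factors. Mcm6 (chr1:128331590-128359664) was at 105, 90.8, 80.1 and 93.1 CPM in AppSAA mice and 173, 179.5, 196 and 140.2 in WT mice (0.579 times, -0.79 ± 0.08, adjusted p = 1.7e-07). For Pcna the values were 154, 137, 157 and 177 and 253, 235, 316 and 288 CPM (0.615 times, adjusted p = 3.2e-08), and for Hells, a chromatin remodeller of replicating cells, 57.6, 54.9, 51.9 and 58.5 and 114, 133, 118 and 100.1 (0.518 times, adjusted p = 4.5e-10). Stmn1, a microtubule destabiliser of proliferating cells, was at 197, 182, 132 and 159 against 362, 291, 317 and 264 CPM (0.58 times, adjusted p = 4.5e-08). For none of Mcm6, Pcna, Hells and Stmn1 did the genotypes overlap. The mitotic genes Top2a and Mki67, listed as markers of cycling cells, were at 0.502 and 0.518 times the WT level (adjusted p = 0.00013 and 2e-06).

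The promoters of Mcm6 and Mcm5 are printed as examples of replication genes that fell and hold an E2F-type element. Capitals mark matches on either strand to TTTCGCGC or TTTGGCGC, which can overlap each other.
Mcm6 (chr1:128359656-128359955, minus strand): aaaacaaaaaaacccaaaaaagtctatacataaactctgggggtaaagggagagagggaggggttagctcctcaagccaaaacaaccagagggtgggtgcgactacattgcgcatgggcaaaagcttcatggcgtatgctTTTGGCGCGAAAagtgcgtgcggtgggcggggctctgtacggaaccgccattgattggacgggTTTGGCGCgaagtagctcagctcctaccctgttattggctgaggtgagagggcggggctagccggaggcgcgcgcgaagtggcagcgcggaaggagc
Mcm5 (chr8:75109259-75109558, plus strand): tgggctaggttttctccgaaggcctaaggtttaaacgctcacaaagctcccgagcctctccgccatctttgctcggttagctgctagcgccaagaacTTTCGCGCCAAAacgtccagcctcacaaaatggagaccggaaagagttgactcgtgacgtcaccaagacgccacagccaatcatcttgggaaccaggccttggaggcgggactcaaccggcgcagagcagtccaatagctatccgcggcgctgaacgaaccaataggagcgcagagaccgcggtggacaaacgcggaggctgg

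Of all 32851 promoters 0.813% held such a match, and of the 28 promoters found for the cell cycle list 5 did, all 5 of genes called lower. Mcm5 itself was at 69.8, 55.2, 59.8 and 59.9 CPM in AppSAA and 104, 108, 122 and 93.2 in WT mice (0.618 times, adjusted p = 2e-07).

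The share of the cluster's cells carrying this programme was lower in AppSAA mice, although their number was higher. Cells with at least 10 cell cycle UMIs per 10000 UMIs made up 25.6 to 34.3% of the cluster in AppSAA and 58.5 to 72.7% in WT mice, or 189 to 333 and 72 to 159 cells per mouse. The comparison was therefore repeated without them, an alternative added after the data were seen, on 501 to 740 cells per AppSAA and 27 to 94 per WT mouse. Of 10655 genes then tested, 626 (5.88%) were higher and 465 (4.36%) lower, of which 530 and 274 were also called in that direction with all cells. The cell cycle list kept 4 falls among 22 tested members, as the removal itself used these genes. The interferon effectors gave 4 rises and 24 falls of 58, with a median of -0.27, and the immunity GTPases 0 rises and 7 falls of 13. MHC class I gave 8 rises and 2 falls, class II 6 rises and sterol synthesis 9 rises. DAM genes gave 22 rises and 2 falls, and Apoe was then not called (log2 2.47, adjusted p = 0.085). Of other genes described, Il10rb and Ccl2 were not called then, at log2 0.31 and -0.54 (adjusted p = 0.076 and 0.30), against 0.24 and -0.33 with all cells. Ifnar1, Ifngr2, Aim2, Gbp3, Irgm2, Ccl12, Stab1 and Cbfa2t3 were also among those not called (adjusted p = 0.15, 0.15, 0.31, 0.053, 0.11, 0.091, 0.069 and 0.053). Their log2 values were nonetheless 0.35, 0.24, -0.20, -0.42, -0.36, -1.004, -0.36 and 1.35, against 0.36, 0.33, -0.22, -0.36, -0.42, -0.46, -0.39 and 1.14 with all cells. Fosb, Mcm5 and Mcm6 were at 0.12, -0.49 and -0.33 and not called (adjusted p = 0.59, 0.056 and 0.20), against 0.40, -0.70 and -0.79. Fewer genes passed with the fewer WT cells, and what part the cell cycle had in the remaining differences was not tested further.

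Of 18 Myc-related and nucleolar genes tested, 9 fell and none rose (median -0.23), while without pool 2, 5 fell and without pool 3, 6 did. Nop56 and Nop58, core proteins of the ribosomal RNA methylation complex, were at 0.728 and 0.71 times the WT level (adjusted p = 9.4e-05 and 0.00021). The polyamine enzyme Srm and the ribosome assembly factor Rrs1 changed by log2 -0.43 and -0.36 (adjusted p = 0.00012 and 0.0051). Sterol and fatty acid synthesis rose, with 11 of 19 tested genes higher, none lower and a median of 0.52. Msmo1, a demethylating oxidase of cholesterol synthesis, was at 45.4, 46.6, 42.7 and 41.9 CPM in AppSAA and 31.4, 29.5, 24.1 and 20.2 in WT mice (1.79-fold, 0.84 ± 0.10, adjusted p = 2.9e-07). Acaca, the first enzyme of fatty acid synthesis, was at 17.5, 23.4, 28.7 and 24.6 against 7.01, 9.54, 13.7 and 9.45 CPM (2.57-fold, adjusted p = 1.1e-08). Hmgcs1 and Fdps, earlier enzymes of the sterol route, rose 1.52-fold and 1.46-fold (adjusted p = 0.00011 and 9.7e-05). Msmo1, Acaca, Hmgcs1 and Fdps all showed no overlap.

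Of 18 genes of lipid transport and the lysosome, 7 rose and 1 fell, and without pools 2 and 3 in turn, 3 and 2 were called higher. Without pool 3, Ctsa was among those lost (adjusted p = 0.15). Npc2, which moves cholesterol out of lysosomes, was at 1342, 1509, 1439.6 and 1325 against 1123, 984, 898 and 989 CPM (1.50-fold, adjusted p = 9.3e-06), and the protease Ctss at 5171, 6468, 5343 and 4989 against 4450.2, 4604, 3429.7 and 3347 (1.49-fold, adjusted p = 2.2e-05). Ctsa, a lysosomal carboxypeptidase, rose by log2 0.29 (adjusted p = 0.0068), and Abcg1, a sterol exporter, changed by log2 -0.29 (adjusted p = 0.0046). Of 19 glycolysis genes 5 rose and none fell, beside 16.2% of all genes tested, with the largest log2 difference at 0.49. The 5 included Gpi1, Pfkl, Hif1a and Bnip3, with log2 differences of 0.32, 0.33, 0.38 and 0.49 (adjusted p = 0.0017, 0.0015, 0.00068 and 0.0011). None of the 19 was called without the cells high in cell cycle genes.

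Single inflammatory cytokines were called in both directions. Il1b, the inflammasome-processed cytokine (chr2:129364570-129371139), was at 447, 365, 491 and 407 CPM in AppSAA and 135, 203, 252 and 189 in WT mice (log2 1.26 ± 0.13, adjusted p = 9.7e-05). Il6, which signals through gp130, went the other way, at 14.9, 12.9, 10.8 and 14.3 against 25.6, 22.1, 40.7 and 37.3 CPM (0.461 times, -1.12 ± 0.17, adjusted p = 0.0011). Tnf was at 969, 544, 773 and 815 against 986, 1015, 1382 and 1105 CPM (0.731 times, adjusted p = 0.025), and Cd40, a costimulatory receptor, at 68.4, 51.6, 50.3 and 51.9 against 106, 75.5, 71.2 and 106 (0.657 times, adjusted p = 4.3e-05). All 4 were without overlap. Of the 19 tested genes of the TNF and NF-kB list, Il1b was the 1 that rose and Tnf, Il6 and Cd40 the 3 that fell, 4 in all, beside 16.2% of all genes tested. With pools 1 to 4 left out in turn, 1, 3, 1 and 2 were called higher and 5, 3, 2 and 2 lower. Of 21 immediate early genes, 4 rose and none fell, again beside 16.2% of all genes tested. This count was unsteady: 12 rose with equal cells per mouse, 6 rose without pool 2, and without pool 4, 3 rose and 2 fell. Dusp1, a phosphatase that switches off MAP kinases, was at 468, 425, 496 and 572 against 275, 320.5, 292 and 295 CPM (1.77-fold, adjusted p = 8.1e-09). The AP-1 subunits Fosb and Jund and the chaperone Hspa1b rose by log2 0.40, 0.34 and 0.61 (adjusted p = 0.00024, 0.0054 and 0.011), with overlapping groups. Tnf missed the threshold without pools 2, 3 and 4 in turn (adjusted p = 0.058, 0.055 and 0.32), Jund without pools 3 and 4 (adjusted p = 0.057 and 0.06) and Hspa1b without pools 1 and 2 (adjusted p = 0.08 and 0.07).

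Beyond the lists, the 10 largest rises among genes with a mean of 10 CPM or more over the 8 mice also named Chst2, St8sia6, Wfdc17, Crip1, Gm1673 and Ramp1. That mean can be reached through 1 group alone, as Chst2 did through the AppSAA mice, so its fold rests on low WT levels. Chst2, a carbohydrate sulfotransferase, was at 25.0, 50.3, 35.0 and 35.8 CPM in AppSAA and 3.62, 5.20, 5.40 and 5.52 in WT mice (7.69-fold, 2.94 ± 0.15, adjusted p = 1.1e-14). St8sia6, a sialyltransferase, was at 21.3, 34.3, 43.6 and 39.4 against 4.30, 11.3, 12.3 and 6.57 CPM (4.56-fold, adjusted p = 2.5e-12). Wfdc17, a secreted whey acidic protein, was at 38.3, 42.1, 42.8 and 33.4 against 7.01, 4.77, 8.84 and 10.8 CPM (5.08-fold, adjusted p = 1e-08). Crip1, Gm1673 and Ramp1, the last a partner of the CGRP receptor, rose 4.09-fold, 4.01-fold and 3.88-fold (adjusted p = 4.7e-13, 4.7e-10 and 2.8e-14). The 10 largest falls were 4930503L19Rik, Brca1, Dtl, Brip1, Il6, Fignl1, Cdc6, Pole, Ccne2 and Ccne1, with log2 values of -1.26, -1.24, -1.12, -1.12, -1.12, -1.08, -1.06, -1.04, -1.03 and -1.02. Without the cells high in cell cycle genes, Dtl, Brip1, Pole, Ccne2 and Ccne1 turned sign, at 0.053, 0.16, 0.60, 0.35 and 0.23. None of them was called then (adjusted p = 0.96, 0.92, 0.72, 0.82 and 0.89).

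The defining markers of other cells had overlapping summed ranges in the 2 groups, at levels that some named genes share. The 5 defining markers of other macrophages summed to 11.2 to 27.9 CPM in AppSAA and 9.54 to 19.6 in WT mice, the 6 of monocytes and dendritic cells to 27.2 to 34.2 and 31.9 to 40.0, and the 4 of neutrophils to 4.34 to 15.4 and 3.47 to 14.2. The 9 of neurons, glia and vessels summed to 17.1 to 39.2 CPM in AppSAA and 16.1 to 26.0 in WT mice, with Slc17a7 at 0 throughout. Of these markers Mbp, a myelin protein, was called, at log2 0.68 (adjusted p = 0.00048). On the longer lists for the same cell types, Folr2, S100a4, Siglech and Csf3r were called higher and Stab1 lower. No lymphocyte gene was called (0 of 3 tested, beside 16.2% of all genes tested). The 12 genes of the lymphocyte list took 0.0208 to 0.02350% of UMIs in AppSAA and 0.02351 to 0.0257% in WT mice. These ranges almost touched, and the difference was not tested. Csf3r and Stab1 differed by log2 0.36 and -0.39 (adjusted p = 0.00078 and 0.0042). Stab1 missed the threshold without pool 2 (adjusted p = 0.066). The part of these cells in the results was not tested.

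The genotype effect in the cluster was then set beside that in all other microglia of the same mice. Cells high in interferon genes had been placed in cluster 5 in both genotypes and were thereby taken out of the other microglia. For interferon genes, that choice of cells and a difference in response cannot be told apart, so their differences are given as a description. Clusters were set by the expression of other genes too, so the same limit holds for cell cycle, DAM and homeostatic genes. It holds here and against cluster 2. In the other microglia, 11.9% of 14251 genes were higher and 8.2% lower in AppSAA. Of 13044 genes, the effect was greater (more positive) in cluster 5 for 721 (5.53%) and smaller (more negative) for 1231 (9.44%) by edgeR's test of the interaction. Both words give the sign of the difference, not the size of the effect. Of the 58 interferon effectors, 57 were higher in AppSAA in the other microglia, with a median log2 fold change of 1.19, and the effect was smaller in cluster 5 for 55, with a median difference of -1.18. For the immunity GTPases 11 of 15 were higher in the other microglia (median 0.69) and 13 of 15 had a smaller effect in cluster 5. Isg15 differed by genotype by log2 1.47 in the other microglia and -0.32 in cluster 5, a difference of -1.79 ± 0.20. For Cmpk2 the values were 1.19 and -0.61 (-1.76 ± 0.18), and for Irf7 1.49 and -0.03 (-1.50 ± 0.15).

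Most DAM genes were higher in AppSAA in both sets of cells. In the other microglia 32 of 36 were higher (median 0.81, against 0.63 in cluster 5), and the effect was smaller in cluster 5 for 13 and greater for 1. Axl, with log2 2.00 outside and 1.00 inside, and Clec7a, with 1.62 and 0.96, were among the 13. For Clec7a the adjusted p was 0.011, and 0.099 without pool 4. Both genes fall under the limit above, Axl also because it is interferon-inducible. MHC class I, with the same limit, showed a smaller effect for 14 of 20 and class II a greater one for 2 of 7, H2-Oa among them (0.47 ± 0.09, adjusted p = 4.3e-05). The cell cycle list, under the same limit, had a median of 0.00 in the other microglia and -0.69 in cluster 5, and 27 of 32 genes had a smaller (more negative) effect there. The list was lower in AppSAA outside the cluster too, at 0.252 to 0.299% of UMIs against 0.310 to 0.358% in WT mice. There 9 of its genes, Mcm2 to Mcm7 among them, were called lower and 4 higher. Sterol synthesis had a greater effect for 7 of 19, including Msmo1 (0.56 ± 0.09, adjusted p = 5.7e-06). Homeostatic genes had a greater effect for 9 of 20: P2ry12 differed by -0.44 outside and -0.18 inside (adjusted p = 1.2e-05), and Siglech by -0.13 and 0.23 (adjusted p = 2.5e-08). Tnf had a more negative effect in cluster 5 (-0.63 ± 0.08, adjusted p = 0.0007).

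**Figure D4:**
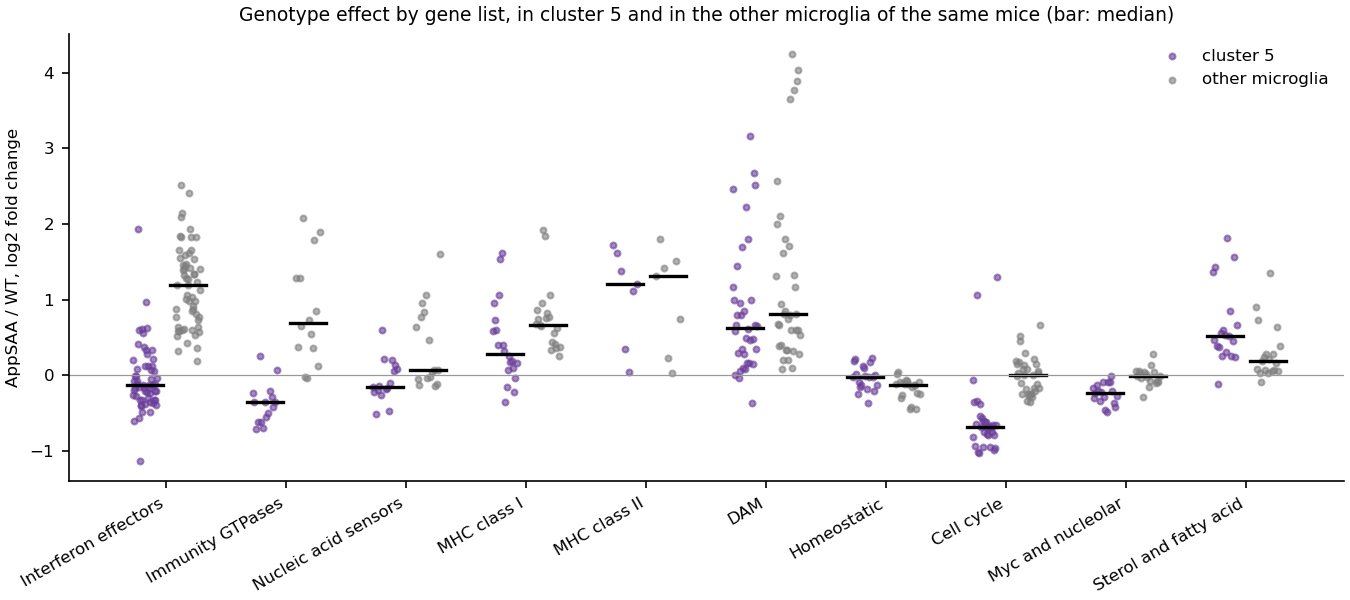
Fitted log2 fold change of AppSAA over WT for each tested gene of 10 lists, in cluster 5 (purple) and in the other microglia of the same mice (grey). Each point is a gene, and bars are medians. The interferon effectors have medians of -0.13 and 1.19, the DAM genes 0.63 and 0.81, and the cell cycle genes -0.69 and 0.00, the latter with 9 genes called lower and 4 higher.

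Among called genes with a mean of 10 CPM or more in cluster 5, the 5 most negative interactions were those of Ifi205, Acod1, Ch25h, Il1rn and Ifi211. Levels outside the cluster were not part of that limit, so effects there may rest on low counts. Ifi205 and Ifi211 are interferon-inducible DNA-binding proteins, Acod1 makes itaconate, Ch25h makes 25-hydroxycholesterol and Il1rn encodes the Il-1 receptor antagonist. None of the 5 was called within cluster 5, whereas all 5 were higher in AppSAA outside it, by log2 1.86, 1.88, 2.15, 1.91 and 2.09. Their interactions were -2.21 ± 0.35, -2.10 ± 0.25, -2.04 ± 0.19, -2.02 ± 0.50 and -1.98 ± 0.26, and the limit on interferon genes applies to them as well. That of Il1rn missed the threshold with any pool left out (adjusted p = 0.059 to 0.29). Within cluster 5, Ifi205 was called lower without pool 2 and Acod1 without pool 1 (adjusted p = 0.023 and 0.0096). Il1rn was called lower there with equal cells per mouse (log2 -0.63, adjusted p = 0.0043). The 5 most positive were those of Cbfa2t3, a transcriptional corepressor, Klhl24, a ubiquitin ligase adaptor, Tspan33, a tetraspanin, Narf and the histone gene Hist1h2bc. Klhl24 was at 20.5, 42.6, 43.0 and 44.3 CPM in AppSAA and 9.50, 15.6, 15.2 and 16.02 in WT mice within cluster 5, a log2 difference of 1.47 against 0.44 outside it. The interactions of the 5 were 1.27 ± 0.14, 1.03 ± 0.11, 0.97 ± 0.11, 0.94 ± 0.16 and 0.92 ± 0.09 (adjusted p = 4.5e-10, 2.5e-10, 1.7e-09, 1.5e-05 and 3.7e-12). Hist1h2bc has near copies, and its count is uncertain.

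The other microglia also differed in makeup between genotypes. They included 355 to 785 cells of deposited cluster 1 per AppSAA mouse and 12 to 21 per WT mouse, and the part of this mix in the differences was not tested. Against deposited cluster 2 alone, which held 818 to 1971 and 1339 to 2186 cells per mouse, the genotype effect in cluster 5 was greater for 1249 (10.1%) and smaller for 1706 (13.8%) of 12385 genes. With the same limits, the effect was smaller for 56 of the 58 interferon effectors (median difference -1.10), 13 of 15 immunity GTPases and 27 of 32 cell cycle genes. DAM genes went the other way against cluster 2, with 14 of 36 greater and 7 smaller. Both comparisons use the same cluster 5 sums.

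The cluster was small in the other arms. It held 0.502 to 1.04% of cells in WT ATV-DNP02 mice, 1.33 to 3.80% in AppSAA ATV-DNP02 mice and 1.31 to 1.90% in AppSAA 4D9 mice. Isg15 was at 908 ± 326, 914 ± 282 and 1013 ± 274 CPM in these groups (mean ± SD, n = 4 each), with the highest mouse of each group at 1208, 1314 and 1352, so that the last 2 groups overlapped the 1273 to 2435 CPM of the 8 mice given ATV:4D9. Mcm6 was at 30.1 ± 19.8, 22.3 ± 3.90 and 21.8 ± 8.62 CPM. Apoe was at 6540 ± 4363, 6622 ± 2274 and 7243 ± 1754 CPM, Ifi27l2a at 829 ± 392, 766 ± 61.9 and 812 ± 276, and Cd74 at 860 ± 844, 1118 ± 789 and 896 ± 417. For Apoe, Ifi27l2a and Cd74, WT and AppSAA mice given ATV-DNP02 overlapped. They also did for Chst2 (35.8 ± 17.2 and 48.4 ± 10.2 CPM), St8sia6 (36.5 ± 7.89 and 40.4 ± 5.23) and H2-D1 (1650 ± 458 and 1860 ± 346). They did not for Ccl6 (184 ± 55.4 and 423 ± 139) or Ank (67.2 ± 35.6 and 193 ± 46.1). For Chst2 and St8sia6 the lowest WT ATV-DNP02 mouse, at 16.1 and 29.6 CPM, lay above every WT mouse given ATV:4D9. The same held for Apoe, Igf1 and Ifi27l2a, with the lowest WT ATV-DNP02 mouse at 3436, 21.5 and 412 CPM. It did not hold for Cd74 and H2-D1, where that mouse was at 183 and 1047 CPM. These sums rest on 11 to 233 cells per mouse and were not tested.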

How the data were processed

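Single-cell libraries were aligned to mm10 and counted with Cell Ranger 6.1.1 by the authors, who deposited raw UMI counts per gene and cell for 19737 genes. Cells were assigned to mice, groups and clusters from the deposited annotation, whose percent of mitochondrial UMIs was used as deposited. How doublets were removed is not given in the sources used here, and no further filter on cells was applied. UMIs were summed per mouse over cluster 5 and compared with edgeR 4.0.16 (R 4.3.3: TMM, filterByExpr, robust quasi-likelihood test, pool as block, Benjamini-Hochberg adjustment over all genes, called at 0.05). SE is the absolute log2 fold change divided by the square root of F. The interaction fit used 2 sums per mouse with mouse as block. Deviations of mice of 1 pool correlated at 0.322 to 0.720 over 2952 genes (the AppSAA mouse of pool 4 at 0.462 with the WT mouse of pool 3), and the labels give 1 mouse per group and pool. Members and gene lists were chosen with earlier results of these data known. Named genes were the 10 largest rises and falls without overlap at 10 CPM or more, up to 4 genes per list by adjusted p (8 for effectors and DAM), the 5 largest interactions of each sign and 11 genes set by name. Others are marked, or are cluster and cell type markers. Alternatives were DESeq2 1.42.0, limma-voom 3.58.1, other normalization, filters and cells, and leaving out each pool. In all, 543 cell barcodes occurred in more than 1 pool and 0 within a pool.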

Additional observations from a re-analysis of the deposited data

Results flagged for a closer look

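Of 258 sets of 4 mice checked, 13 held 1 mouse far from the other 3 (a gap ratio above Dixon's 95% critical value for 4). Chance alone gives such a gap in about 1 of 20 sets. Among interferon-related genes they were Isg15 and Mx1 in the WT mouse of pool 1, at 2435 and 167 CPM, Rsad2 in the WT mouse of pool 2, at 450.6 CPM, and Gbp4, an immunity GTPase, in the WT mouse of pool 3, at 42.7 CPM. Ifnar2 stood at 308 CPM in the AppSAA mouse of pool 2 and H2-K1 at 1742 CPM in that of pool 3. The AppSAA mouse of pool 1 stood apart for Cd40 at 68.4, Il1rn at 41.5, Klhl24 at 20.5 and Narf at 7.23 CPM. The WT mouse of pool 1 did for Chst2 at 3.62 and Klhl24 at 9.50 CPM, and the WT mouse of pool 3 for Cbfa2t3 at 13.7 CPM.

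The genotype effect differed between cluster 5 and the other microglia of the same mice for 1952 genes, and between cluster 5 and cluster 2 for 2955, by edgeR's interaction test. For interferon genes, the placing of cells high in them in cluster 5 and a difference in response cannot be told apart. The same limit holds for cell cycle, DAM and homeostatic genes, as clusters were set by expression. The log2 difference in effect from the other microglia was -2.21 for Ifi205, -2.10 for Acod1, -2.04 for Ch25h, -2.02 for Il1rn and -1.98 for Ifi211. It was -1.79 for Isg15, -1.76 for Cmpk2, -1.50 for Irf7, -0.998 for Axl, -0.66 for Clec7a and -0.63 for Tnf. Values above 0 were 1.27 for Cbfa2t3, 1.03 for Klhl24, 0.97 for Tspan33, 0.94 for Narf, 0.92 for Hist1h2bc, 0.56 for Msmo1, 0.47 for H2-Oa, 0.36 for Siglech and 0.26 for P2ry12.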

How the results depend on the processing

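Of 125 named genes compared within cluster 5, 111 kept their direction under every alternative run, and of 115 called, 39 kept their call in all of them. The genotype count of 1874 fell to 976 with DESeq2 (541 higher, 435 lower) and to 680 with no replicate block for the pool (381 higher, 299 lower). It was 1091 without cells with 10 or more cell cycle UMIs per 10000 (626 higher, 465 lower), an alternative chosen after seeing the data, and 390 without cells with 3 or more (245 higher, 145 lower), which left 5 to 23 WT cells per mouse. Of the named genes called within cluster 5, 3, 9, 17 and 14 lost a call without pools 1, 2, 3 and 4. Leaving out 1 pool gave 1195 (without pool 3) to 1579 genes, 633 to 845 higher and 562 to 734 lower. With the pool block the share of cells had a sign permutation p of 0.125, the smallest that 4 pools allow. Multiplied by the 2 per-mouse values tested (Bonferroni), it was 0.25. The 1952 interactions with the other microglia became 421 without cells of 3 or more cell cycle UMIs and 1254 to 1893 with 1 pool left out (1274 without pool 1, 1254 without pool 4). The 2955 with cluster 2 became 271 without such cells.

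Signs turned for few named genes, and the cause was not tested except that the cell cycle filters select on such genes themselves. Without cells of 10 or more cell cycle UMIs per 10000, log2 values became 0.16 for Brip1, 0.23 for Ccne1, 0.35 for Ccne2, 0.053 for Dtl, 0.68 for Mki67, 0.60 for Pole, 0.18 for Top2a, -0.073 for Cxcl16, -0.48 for Ch25h and -0.38 for Ifi211. Without cells of 3 or more, they were -0.17 for App, -0.17 for Cxcl16, 0.052 for Pcna, -0.72 for Ch25h, -0.42 for Ifi211 and 0.081 for Il1rn. With equal cells per mouse Ch25h was at -0.044 and Ifi211 at -0.038, and with cells of 1000 to 25000 UMIs Il1rn was at 0.057. With 1 pool left out, Ch25h ranged from -0.16 to 0.50, Ifi211 from -0.073 to 0.22, Il1rn from -0.71 to 0.31 and Irf7 from -0.14 to 0.071. Irf7, not called with all cells, was called lower without cells of 3 or more cell cycle UMIs (log2 -0.68, adjusted p = 0.017). Depth was limited by the WT sums of 99 to 253 cells.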
